A study of Mus musculus with 9 samples.

Results

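The genes described here carry the names of the nuclear-encoded subunits of respiratory complex III, of complex IV and of ATP synthase (complex V), or encode cytochrome c. They were measured in muscle of mice with and without cisplatin. The rule used gene symbols and no measured value. Every symbol in the count tables that begins with Uqcr, Cox4, Cox5, Cox6, Cox7, Cox8 or Atp5 was taken, pseudogenes excepted, and Cyc1 and Cycs were added. This gave 45 of 23238 symbols, namely 9 for complex III, 1 for cytochrome c, 18 with complex IV names and 17 with an Atp5 name. Of these, 3 are not structural subunits in the strict sense: Cox7a2l is described as a link between complexes, and Atp5s and Atp5sl only share the prefix. The filter on low counts passed 43 of the 45, among 12859 genes tested. The other 2, Cox7b2 and Cox8c, are known as testis forms of complex IV subunits. Cox7b2 had 1 count, in Cisplatin replicate 2, and Cox8c had 0 among 82389441 counts over the 9 libraries, which allows a level of up to 0.0364 CPM, the count scaled to a fixed library size. Among 4 genes of male germ cells, Cyct, Tnp1 and Prm1 were at 0 in every library and Ldhc had a single count. The subunits made from mitochondrial DNA were not analysed here.

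RNA was measured by 3′ tag sequencing in gastrocnemius muscle of female C57BL/6 mice labelled as 4 weeks old, in 3 groups of 3 libraries. Normal mice were given saline injections and oral distilled water. Cisplatin mice were given 4 intraperitoneal doses of cisplatin, a DNA-crosslinking chemotherapy drug, of 3 mg/kg on alternate days, with oral water over 9 days. RP mice were given the same cisplatin and, in place of water, 100 mg/kg of RP, a code which the series title ties to Paeonia lactiflora extract. No group received RP without cisplatin. The labels do not say that each library came from a separate mouse, so p-values measure the spread between these libraries, which may be in part technical.

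The respiratory chain passes electrons from NADH and succinate to oxygen and pumps protons out of the mitochondrial matrix. Complex III hands electrons from ubiquinol to cytochrome c, complex IV uses them to reduce oxygen to water, and ATP synthase lets the protons flow back through a ring of c subunits that drives its catalytic head. Skeletal muscle is rich in these enzymes, and several small subunits of complex IV exist in a muscle form and a form made in most tissues.

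Of the 43 genes tested, 22 fell and 4 rose in Cisplatin against Normal (edgeR's quasi-likelihood test, adjusted p under 0.05 over all genes). Their median log2 fold change was -0.40, against -0.08 over all genes tested. Calls were common in the whole table: 54.5% of genes tested were called, 28.2% as fallen and 26.3% as risen. Read against that background, the share of these genes that were called, 60.5%, was close to the table's, while the calls lay mostly on the falling side. The 2 groups of 3 libraries did not overlap for 28 of the 43, or 65.1%, against 62.2% of all genes.

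In RP against Cisplatin, 22 of the 43 rose and 3 fell, with a median of 0.42 against 0.07 over all genes tested. Of all genes tested, 48.8% were called, 24.6% as risen and 24.2% as fallen. The groups did not overlap for 29 of the 43, or 67.4%, against 56.8% of all genes. Both comparisons use the same 3 Cisplatin libraries, so a value that is high or low there by chance enters them with opposite signs.

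In RP against Normal none of the 43 was called by edgeR, 0 had an unadjusted p under 0.05 (the lowest was 0.0718, and the lowest adjusted p 0.435), and DESeq2 and limma-voom also called 0. Of all genes tested, 0.505% were called, 0.319% as fallen and 0.187% as risen. Without Cox4i2, Cox6b2 and Atp5s, the 3 genes of lowest level, the estimates lay between -0.20 and 0.29, with SEs of 0.12 to 0.19, so differences within about that range were not resolved. For 0 of the 43 genes did the 3 RP libraries and the 3 Normal libraries fail to overlap, against 19.2% of all genes tested.

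**Figure D1:**
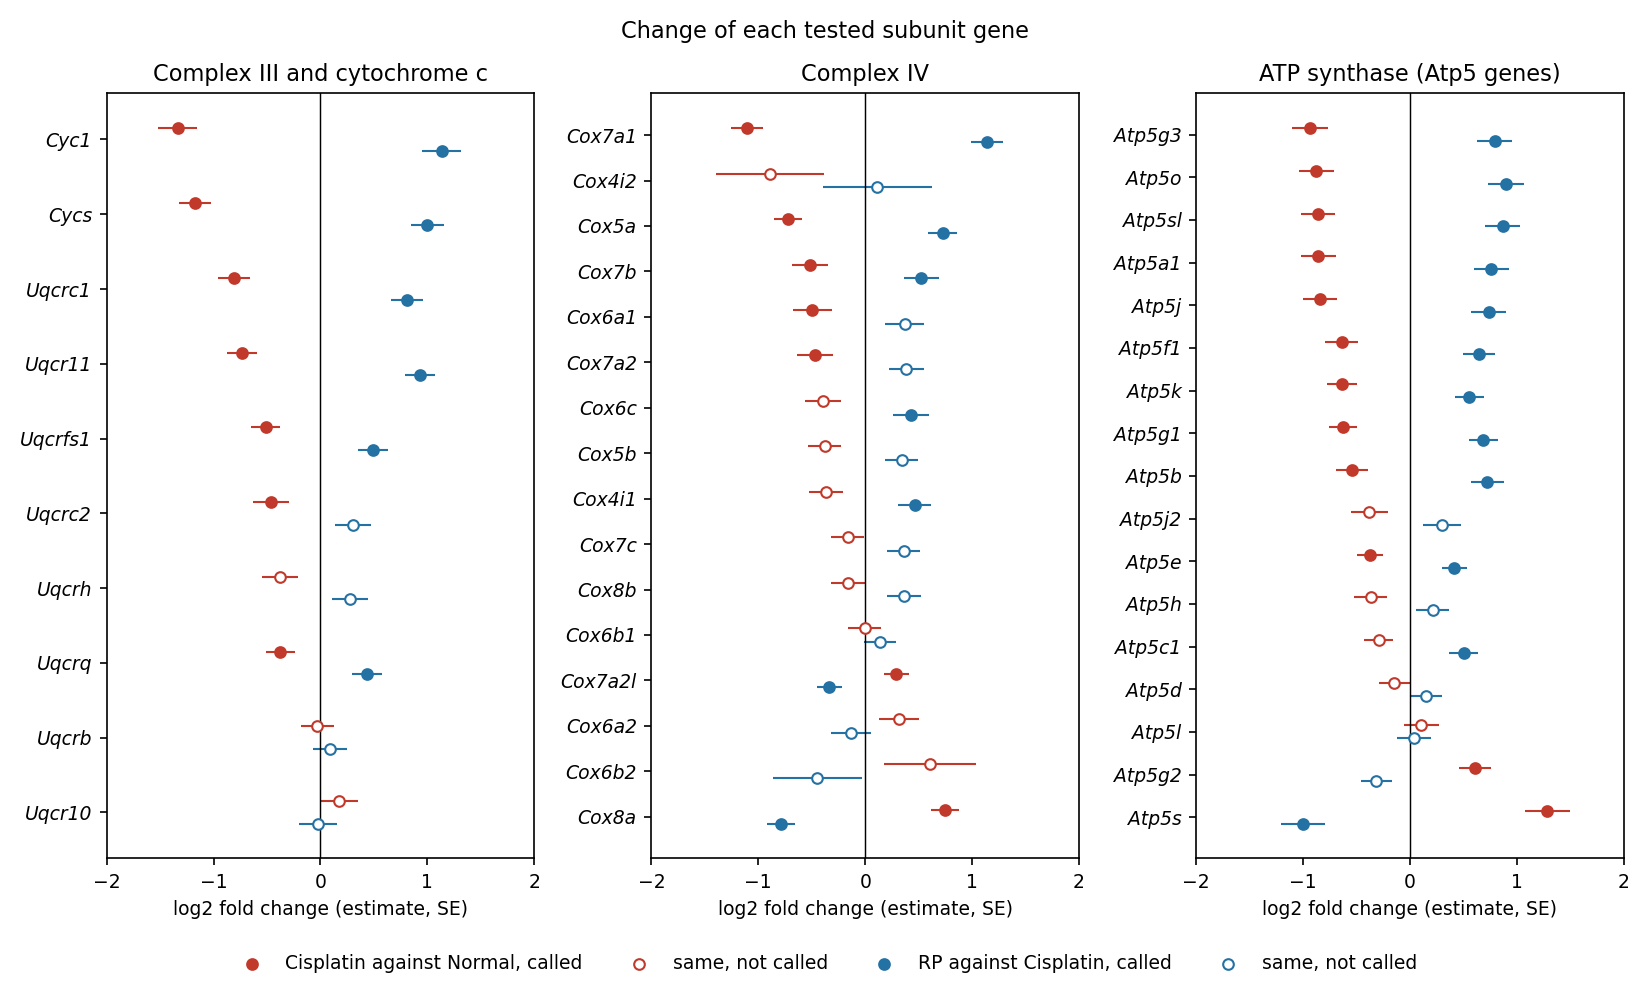
Log2 fold change (horizontal axis, edgeR estimate with its SE as the bar) of the 43 tested genes in Cisplatin against Normal (red) and RP against Cisplatin (blue), with filled points for adjusted p under 0.05. The filled red points lie to the left for 22 genes and to the right for Cox7a2l, Cox8a, Atp5g2 and Atp5s. The comparisons share the Cisplatin libraries.

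Totals were 8196030 to 10678342 counts per library. CPM values are scaled by TMM factors and given for replicates 1, 2 and 3 in turn. Since a 3′ tag library gives each transcript about 1 tag whatever its length, CPM levels may be compared roughly between genes. Overlapping genes and processed copies, described below, limit that comparison. Libraries of a group did not stand equally: Normal replicate 3 held the highest Normal value for 39 of the 43 genes, Cisplatin replicate 3 the highest Cisplatin value for 29, and RP replicate 2 the highest RP value for 33. The Cisplatin ranking turned with the scaling, since by share of a library's counts replicate 3 was highest for 14 genes and replicate 1 for 23. Without Normal replicate 3, 15 genes fell in Cisplatin against Normal, and without Cisplatin replicate 3, 26 fell. These are bulk samples, in which fewer cells of a type and less RNA per cell cannot be told apart.

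The genes named for the 3 complexes took 2.43 to 3.10% of all counts in the Normal libraries, against 1.89 to 2.06% in Cisplatin and 2.64 to 3.23% in RP. ATP synthase genes took 1.13%, 0.9997% and 1.32% in Normal, 0.765%, 0.730% and 0.683% in Cisplatin and 1.12%, 1.37% and 1.10% in RP. All 3 Cisplatin libraries lay below all Normal and RP libraries. Complex III genes took 0.451 to 0.590% in Normal libraries, 0.358 to 0.390% in those of Cisplatin, and 0.481 to 0.596% in those of RP, again with Cisplatin below the other groups. On the TMM-scaled CPM scale this no longer held, with 4590 CPM summed in Cisplatin replicate 3 and 4522 in Normal replicate 2, whereas the summed ATP synthase genes (7414 to 8040 CPM in Cisplatin) stayed below those of both other groups. Complex IV genes took 0.977 to 1.19% in Normal libraries, 0.806 to 0.989% in those of Cisplatin, and 1.07 to 1.27% in those of RP. For complex IV the Cisplatin and Normal libraries overlapped and its most abundant gene was Cox6a2, the muscle form of subunit 6A.

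**Figure D2:**
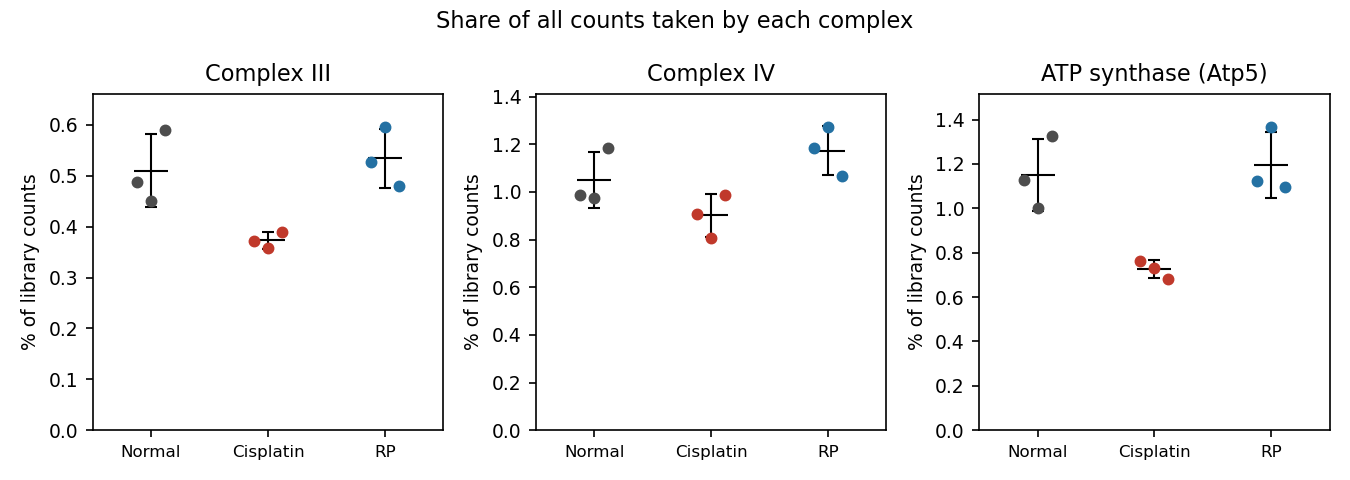
Percentage of each library's counts (vertical axis) taken by the genes of complex III, complex IV and ATP synthase, 1 point per library, with the mean and SD of 3 libraries as the bar. Cisplatin libraries lie below both other groups for complex III and ATP synthase, and for complex IV the highest Cisplatin library (0.989%) lies above the lowest Normal library (0.977%).

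In complex III, 6 of 9 genes fell in Cisplatin against Normal and the other 3 were not called (median -0.46), and 5 rose in RP against Cisplatin (median 0.44). The share called, 66.7%, compares with 54.5% of all genes, and 55.6% with 48.8%. Cyc1, on chromosome 15, 76343523 to 76346260, plus strand, encodes cytochrome c1, the haem subunit that passes electrons on to cytochrome c. It stood at 275, 255 and 370.0 CPM in Normal, at 106, 139 and 111 CPM in Cisplatin and at 218, 324 and 239.9 CPM in RP. Each Cisplatin value was below every Normal and RP value, and Normal and RP overlapped. The log2 fold change was -1.34 ± 0.18 (adjusted p = 4.62e-05) with cisplatin, the largest fall among the 43 genes, and 1.13 ± 0.18 (adjusted p = 0.000226) in RP against Cisplatin. Uqcrfs1, the Rieske iron-sulphur protein and the other nuclear-encoded redox subunit, also fell, with a change of -0.51 ± 0.14 (adjusted p = 0.00651).

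The core proteins Uqcrc1 and Uqcrc2, which face the matrix and carry no redox centre, both fell. Uqcrc1 stood at 239, 209 and 316 CPM in Normal, at 149, 149 and 140.1 CPM in Cisplatin and at 251, 275 and 239 CPM in RP. Its Cisplatin values lay within a narrow band below both other groups, with log2 fold changes of -0.81 ± 0.15 (adjusted p = 0.000501) and 0.81 ± 0.15 (adjusted p = 0.000635). Uqcrc2 changed by -0.46 ± 0.17 (adjusted p = 0.0314) with cisplatin and by 0.31 ± 0.17 in RP against Cisplatin, which was not called (adjusted p = 0.144). The call of Uqcrc2 with cisplatin was lost on leaving out Normal replicate 3, Cisplatin replicate 1 or Cisplatin replicate 2 (adjusted p of up to 0.191 over the alternatives).

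Among the 5 small subunits without redox centres, 2 fell with cisplatin. Uqcr11, one of the smallest, stood at 226, 259 and 288 CPM in Normal, at 153, 142 and 171 CPM in Cisplatin and at 305, 323 and 259 CPM in RP. All Cisplatin values were the lowest, and the log2 fold changes were -0.73 ± 0.14 (adjusted p = 0.000582) and 0.93 ± 0.14 (adjusted p = 0.000124). Uqcrq fell by 0.37 on the log2 scale (adjusted p = 0.0343). That call was lost with no filter, without Normal replicate 1 or 3 and without Cisplatin replicate 1 or 2 (up to 0.154). It was higher in RP than in Cisplatin by 0.44 ± 0.14 (adjusted p = 0.0181), a call lost without Cisplatin replicate 2 and without RP replicate 1 or 2 (up to 0.0626). Uqcrb, which helps to form the ubiquinone site, gave -0.03 ± 0.16, the hinge protein gene Uqcrh -0.38 ± 0.17 and Uqcr10 0.17 ± 0.18, none of them called. Uqcrh was called as fallen under library-size scaling, under the 5 CPM filter and without Cisplatin replicate 3 (adjusted p down to 0.0129 over the alternatives). Cisplatin replicate 3 was the highest of its group for Uqcrb and Uqcr10, at 657 and 803 CPM, above every Normal library for both.

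Cycs, on chromosome 6, 50562563 to 50566538, minus strand, encodes the cytochrome c made outside the testis, the soluble carrier between complexes III and IV. It stood at 467, 414 and 539.9 CPM in Normal, at 190.1, 215 and 224 CPM in Cisplatin and at 376, 504 and 380.5 CPM in RP. The Cisplatin libraries formed a separate low group and the RP libraries overlapped with Normal. The log2 fold change was -1.17 ± 0.15 (adjusted p = 2.92e-05) with cisplatin, the lowest adjusted p among the 43 genes, and 1.001 ± 0.15 (adjusted p = 0.000145) in RP against Cisplatin. The 250 bases before its start, at chr6:50566570-50566819 (minus strand), are printed because Cycs is a textbook target of NRF1, a regulator of respiratory genes. That start lies outside the gene span given above, and the bases just after it were not found in a GENCODE transcript of Cycs. Promoter sequences here are from RefSeq on GRCm38.p6, 5′ to 3′ on the gene's strand, and the capitals mark a match, on either strand, to the NRF1 letters GCGCNTGCG.
Cycs promoter: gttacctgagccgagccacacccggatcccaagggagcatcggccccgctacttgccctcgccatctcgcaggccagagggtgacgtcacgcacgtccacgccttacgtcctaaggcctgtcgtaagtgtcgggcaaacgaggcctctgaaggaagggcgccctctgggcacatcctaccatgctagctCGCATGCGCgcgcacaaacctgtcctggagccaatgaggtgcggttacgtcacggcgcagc

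**Figure D3:**
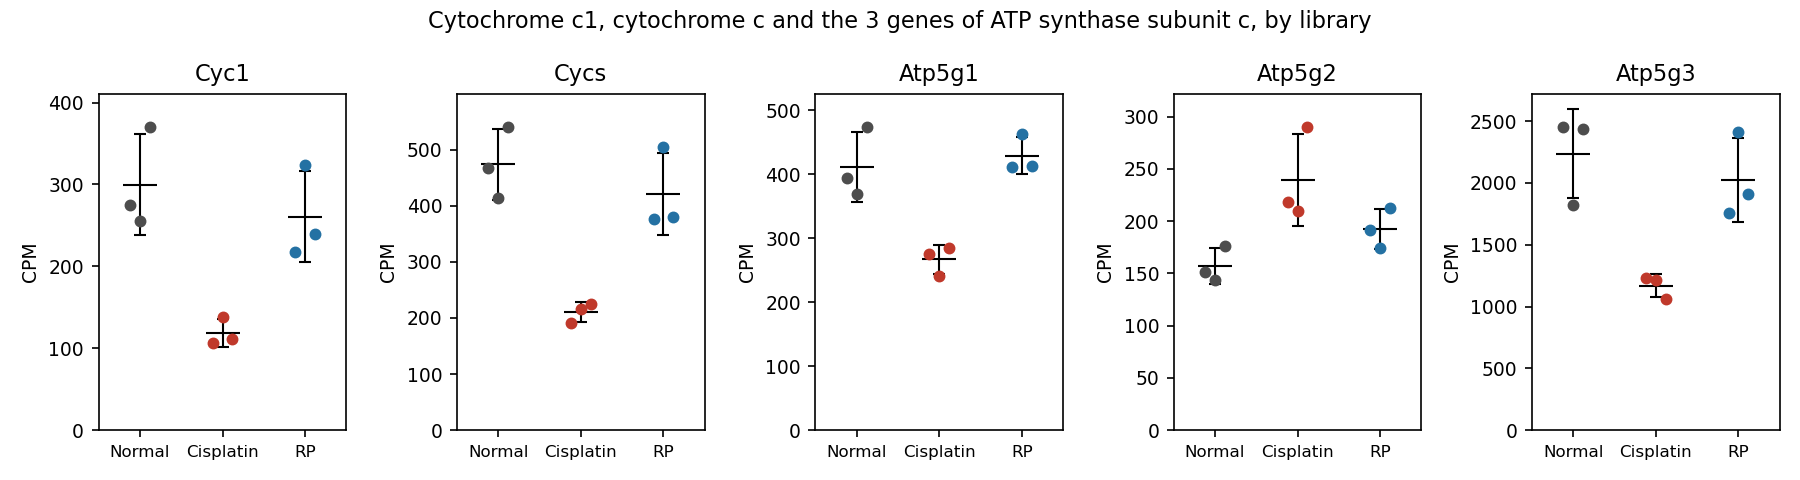
CPM (vertical axes, each from 0) of Cyc1, Cycs and the 3 genes of ATP synthase subunit c in each library, with the mean and SD of 3 libraries as the bar. Cisplatin libraries are the lowest for Cyc1, Cycs, Atp5g1 and Atp5g3, and Cisplatin is above Normal for Atp5g2.

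In complex IV, 5 of the 16 genes tested fell in Cisplatin against Normal, 2 rose and 9 were not called (median -0.37). In RP against Cisplatin 5 rose and 2 fell (median 0.36). The share called was 43.8% in each, below the 54.5% and 48.8% of all genes, and 5 fallen genes of 16 are close to the 28.2% of all genes that fell. Of 7 subunits with a single form in muscle, Cox5a and Cox7b fell. Cox5a, which lies on the matrix side, stood at 757, 729.8 and 872 CPM in Normal, at 500.1, 476 and 457 CPM in Cisplatin and at 755, 881 and 730.3 CPM in RP. The 3 groups fell into a low Cisplatin set and an overlapping pair of Normal and RP, with log2 fold changes of -0.72 ± 0.13 (adjusted p = 0.000451) and 0.72 ± 0.13 (adjusted p = 0.000553). Cox7b changed by -0.52 ± 0.16 (adjusted p = 0.0163) with cisplatin and by 0.52 ± 0.16 (adjusted p = 0.0173) in RP against Cisplatin. Both calls were lost without Cisplatin replicate 1 or 2, the first also without Normal replicate 3 (up to 0.0773) and the second without RP replicate 2 (up to 0.0742). Cox5b, Cox6b1, Cox6c and Cox7c were not called with cisplatin by edgeR, with estimates from -0.40 (Cox6c) to -0.01 (Cox6b1). DESeq2 and limma-voom called Cox5b and Cox6c as fallen, as did edgeR under library-size scaling, under the 5 CPM filter and without Cisplatin replicate 3 (adjusted p down to 0.0199 and 0.0133 over the alternatives). Cox5b was also called without Normal replicate 2. Cox6c was higher in RP than in Cisplatin by 0.43 ± 0.17 (adjusted p = 0.0451), but only Normal replicate 3 and Cisplatin replicate 3 could be left out without losing that call (up to 0.171). RLE scaling also lost the Cox6c call.

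Subunit 4 has a common form, Cox4i1, and a form best known from lung and from low oxygen, Cox4i2. Cox4i1 stood at 602, 619 and 686 CPM in Normal, at 558, 449 and 473 CPM in Cisplatin and at 706, 795 and 541 CPM in RP. The Cisplatin values were below all Normal values, but the change of -0.37 ± 0.16 was not called (adjusted p = 0.0607), while the RP against Cisplatin value of 0.46 ± 0.16 was (adjusted p = 0.0241). The first was called under library-size scaling, under the 5 CPM filter, by limma-voom and in a fit of the 2 groups alone. Leaving out Cisplatin replicate 1, RP replicate 2 or RP replicate 3 also gave the call (adjusted p down to 0.0284 over the alternatives). The second was lost without Cisplatin replicate 2 or 3 and without RP replicate 1 or 2 (up to 0.109). Cox4i2 stood at 2.42, 1.39 and 4.21 CPM in Normal, at 1.17, 1.24 and 1.903 CPM in Cisplatin and at 1.65, 1.79 and 1.21 CPM in RP, with all 3 groups overlapping and at most 0.610% of the counts for subunit 4 in any library.

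The paired forms of 3 small subunits allow muscle and common versions to be set against each other inside each library, where scaling between libraries drops out. Each pair was tested over the 9 libraries with an exact permutation test of the log2 ratio, with Benjamini-Hochberg adjustment over the 3 pairs. The smallest p this test can give is 0.00357, and between 2 groups alone it is 0.1.

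The forms of subunit 8 behaved differently, since the common form rose with cisplatin and the muscle form was not called. Cox8b, the muscle form (chromosome 7, 140898945 to 140900446, minus strand), stood at 548, 597 and 656 CPM in Normal, at 523, 422 and 670.4 CPM in Cisplatin and at 719.9, 702 and 655 CPM in RP. Its Cisplatin values lay on both sides of the Normal range, and neither -0.16 ± 0.16 with cisplatin (adjusted p = 0.43) nor 0.36 ± 0.16 in RP against Cisplatin (adjusted p = 0.0767) was called. The latter was called under library-size scaling, the 5 CPM filter and limma-voom, and without Cisplatin replicate 3. Its adjusted p went down to 0.00681 over the alternatives. Cox8a, the common form (chromosome 19, 7215153 to 7217616, minus strand), stood at 75.2, 102 and 91.0 CPM in Normal, at 153, 144 and 155 CPM in Cisplatin and at 87.2, 90.7 and 83.4 CPM in RP. All Cisplatin values were above every other library, with a change of 0.75 ± 0.13 on the log2 scale (adjusted p = 0.000305), and RP against Cisplatin gave -0.79 ± 0.13 (adjusted p = 0.00026).

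The Cox8b to Cox8a ratio was 7.28, 5.82 and 7.21 in Normal, 3.42, 2.93 and 4.33 in Cisplatin and 8.25, 7.74 and 7.84 in RP. The 3 groups did not overlap, with Cisplatin lowest and RP highest (exact p = 0.00357, the smallest possible, adjusted p = 0.0107). The mean log2 ratio was lower by 0.94 in Cisplatin than in Normal, and higher by 1.18 in RP than in Cisplatin. RP was above Normal by 0.24, at an exact p of 0.1.

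Both forms of subunit 7A fell, the muscle form more. Cox7a1, the muscle form (chromosome 7, 30184144 to 30186078, plus strand), stood at 511, 491 and 584 CPM in Normal, at 234, 231 and 271 CPM in Cisplatin and at 553, 621 and 445 CPM in RP. The Cisplatin values were the lowest of the 9, with log2 fold changes of -1.11 ± 0.15 (adjusted p = 3.42e-05) and 1.14 ± 0.15 (adjusted p = 3.93e-05). Cox7a2, the common form (chromosome 9, 79755361 to 79759878, minus strand), stood at 640.4, 622 and 872 CPM in Normal, at 446, 485 and 611 CPM in Cisplatin and at 639.8, 732 and 641 CPM in RP. Cisplatin was below both other groups without overlap, and the changes were -0.47 ± 0.16 (adjusted p = 0.0268) and 0.38 ± 0.16, the latter not called (adjusted p = 0.0675). The fall of Cox7a2 was lost on leaving out Normal replicate 3, Cisplatin replicate 1 or Cisplatin replicate 2 (up to 0.158). Its RP against Cisplatin value was called under library-size scaling, the 5 CPM filter, limma-voom and the replicate block. That value was also called without Normal replicate 3 or Cisplatin replicate 3 (down to 0.00788).

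The Cox7a1 to Cox7a2 ratio was 0.798, 0.788 and 0.670 in Normal, 0.524, 0.476 and 0.444 in Cisplatin and 0.865, 0.849 and 0.695 in RP. Cisplatin was lowest in every library and Normal and RP overlapped (exact p = 0.0179, adjusted p = 0.0268). The adjusted p was 0.0536 without Normal replicate 3 and also without RP replicate 1. The mean log2 ratio was lower by 0.64 in Cisplatin than in Normal and higher by 0.73 in RP than in Cisplatin.

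Subunit 6A did not follow the other pairs. Cox6a2, the muscle form (chromosome 7, 128205435 to 128206387, minus strand), was the most abundant of the 43 genes and stood at 2829, 2927 and 3458 CPM in Normal, at 3269, 3099 and 5080.2 CPM in Cisplatin and at 3557, 3363 and 3510.4 CPM in RP. The groups overlapped, Cisplatin replicate 3 stood far above the rest, and no change was called (0.31 ± 0.19 with cisplatin, adjusted p = 0.169). Cox6a1, the common form (chromosome 5, 115345642 to 115348981, minus strand), stood at 86.6, 134 and 108 CPM in Normal, at 87.9, 85.9 and 59.4 CPM in Cisplatin and at 94.7, 114 and 93.3 CPM in RP. Cox6a1 fell with cisplatin, with a change of -0.50 ± 0.18 (adjusted p = 0.034), although Cisplatin replicate 1 lay above Normal replicate 1. That call was lost without Normal replicate 2 or 3 and without Cisplatin replicate 3 (up to 0.186).

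The Cox6a2 to Cox6a1 ratio was 32.6, 21.8 and 32.0 in Normal, 37.2, 36.0 and 85.5 in Cisplatin and 37.5, 29.6 and 37.6 in RP. Cisplatin lay above Normal and overlapped with RP, and the test over the 3 groups was not passed (exact p = 0.0964, adjusted p = 0.0964). The mean log2 ratio was higher by 0.78 in Cisplatin than in Normal, and by 0.37 without Cisplatin replicate 3. The adjusted p was 0.0321 without Cisplatin replicate 2.

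**Figure D4:**
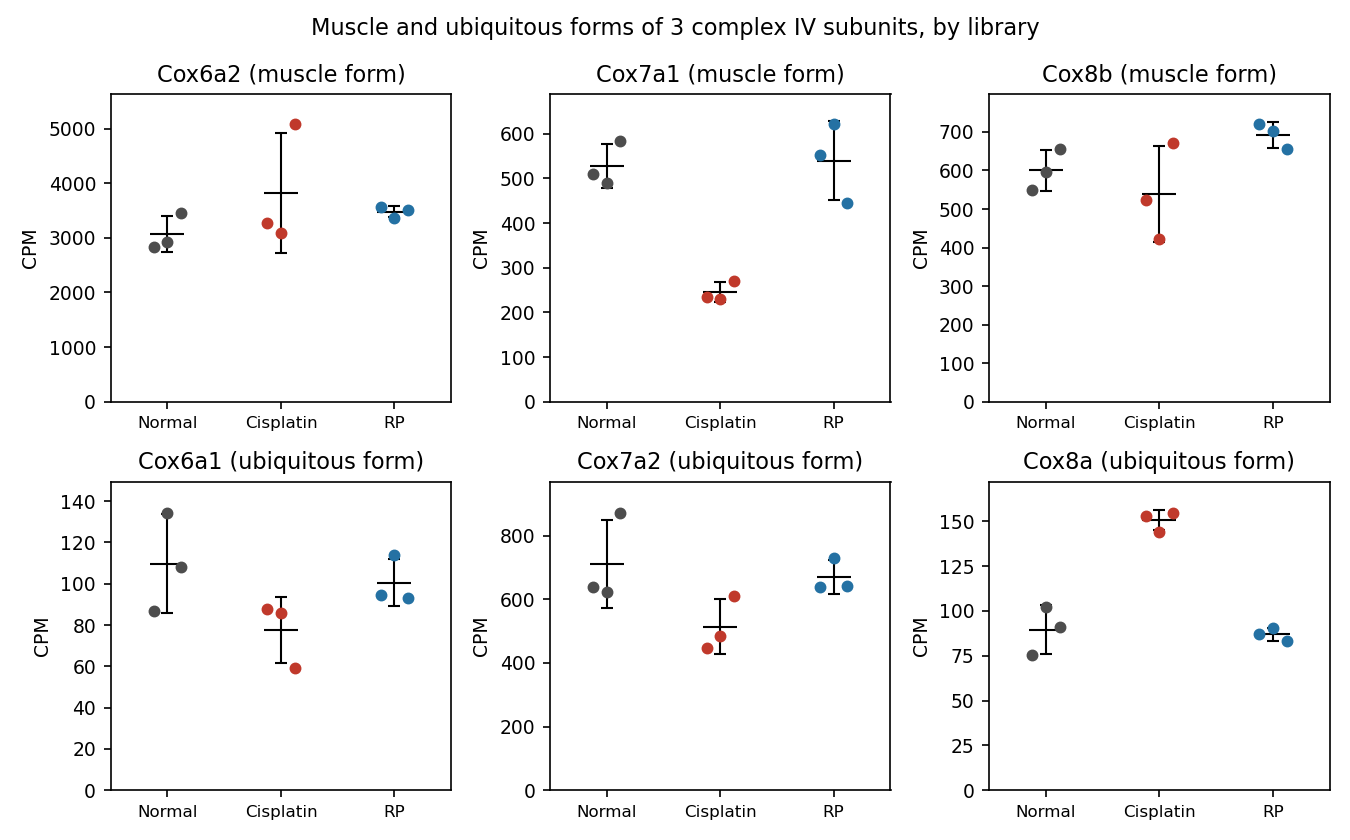
CPM (vertical axes, each from 0) of the muscle form (upper row) and the common form (lower row) of subunits 6A, 7A and 8 in each library, with the mean and SD of 3 libraries as the bar. Cox7a1 is lowest and Cox8a highest in the 3 Cisplatin libraries, and Cisplatin replicate 3 stands apart for Cox6a2.

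**Figure D5:**
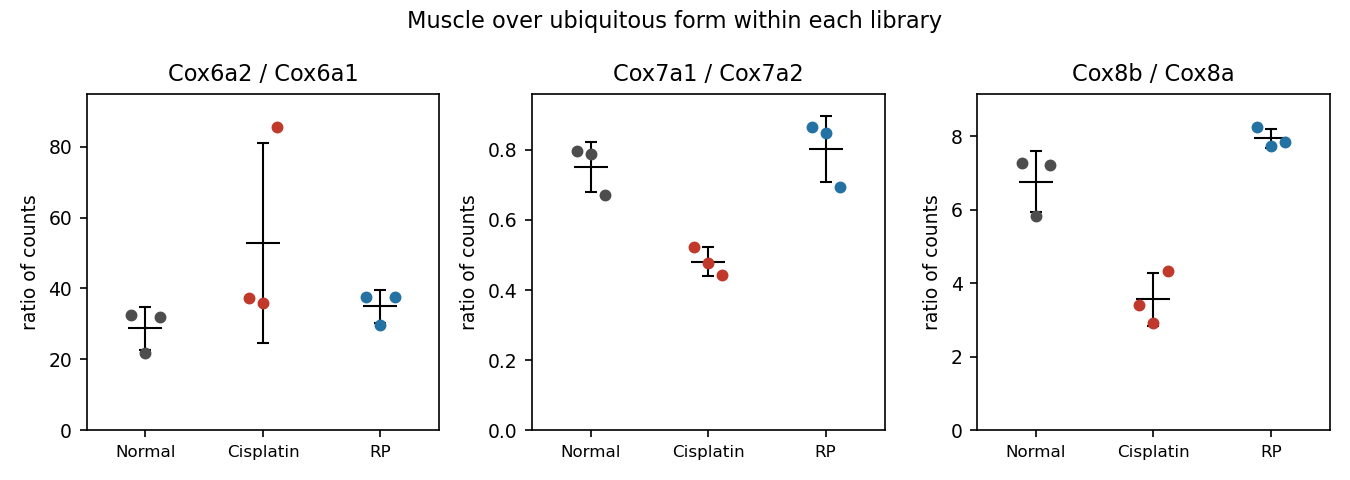
Ratio of muscle to common form by count (vertical axes, each from 0) within each library, with the mean and SD of 3 libraries as the bar. Cisplatin libraries are lowest for Cox7a1 to Cox7a2 and Cox8b to Cox8a, and reach 85.5 for Cox6a2 to Cox6a1.

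Cox7a2l, a relative of subunit 7A known as SCAF1, is described as a link between complexes III and IV in supercomplexes. Whether its protein does so in these mice was not measured. Cox7a2l RNA stood at 160.3, 159 and 186 CPM in Normal, at 199.98, 205 and 214 CPM in Cisplatin and at 163, 170.0 and 156 CPM in RP. Its Cisplatin values were above every Normal and RP value, by 0.29 ± 0.12 (adjusted p = 0.0494), and RP against Cisplatin gave -0.34 ± 0.12 (adjusted p = 0.028). The first call was lost in 12 of 18 alternatives, among them library-size scaling, no filter, the 5 CPM filter and the 2 groups alone. Library-size scaling and no filter also lost the second. Over the alternatives the first adjusted p ran from 0.0243 to 0.144 and the second from 0.0116 to 0.19. The first call was kept only without Normal replicate 3 or RP replicate 3 among the 9 fits that left out a library, and the second was lost without Cisplatin replicate 2 or 3 and without RP replicate 1 or 3. Cox6b2, known as a testis form, was between 1.09 and 2.95 CPM in all libraries and was not called.

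The promoters of the subunit 7A and 8 pairs are shown because the forms moved differently. The windows are chr7:30183921-30184170 (plus strand) for Cox7a1, chr9:79759854-79760103 (minus strand) for Cox7a2, chr7:140900447-140900696 (minus strand) for Cox8b and chr19:7217617-7217866 (minus strand) for Cox8a. Capitals mark the myogenic E-box letters CAGCTG, found in Cox8b. None of the motifs searched was found in the other 3. The last 27 bases of the Cox7a1 window and the last 25 of the Cox7a2 window lie in GENCODE exons.
Cox7a1 promoter: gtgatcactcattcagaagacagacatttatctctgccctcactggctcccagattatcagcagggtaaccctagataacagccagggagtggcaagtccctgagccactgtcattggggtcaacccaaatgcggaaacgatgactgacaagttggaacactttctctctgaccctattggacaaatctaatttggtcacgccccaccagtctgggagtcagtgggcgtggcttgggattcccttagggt
Cox7a2 promoter: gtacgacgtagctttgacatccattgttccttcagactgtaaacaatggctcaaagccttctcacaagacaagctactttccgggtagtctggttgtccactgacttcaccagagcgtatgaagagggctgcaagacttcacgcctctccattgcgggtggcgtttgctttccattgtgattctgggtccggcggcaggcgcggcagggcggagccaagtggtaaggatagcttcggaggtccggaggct
Cox8b promoter: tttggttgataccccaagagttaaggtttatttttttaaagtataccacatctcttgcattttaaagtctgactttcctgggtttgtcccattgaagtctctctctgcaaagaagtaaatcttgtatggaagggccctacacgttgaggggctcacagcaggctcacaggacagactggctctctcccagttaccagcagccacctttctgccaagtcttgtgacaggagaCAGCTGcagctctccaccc
Cox8a promoter: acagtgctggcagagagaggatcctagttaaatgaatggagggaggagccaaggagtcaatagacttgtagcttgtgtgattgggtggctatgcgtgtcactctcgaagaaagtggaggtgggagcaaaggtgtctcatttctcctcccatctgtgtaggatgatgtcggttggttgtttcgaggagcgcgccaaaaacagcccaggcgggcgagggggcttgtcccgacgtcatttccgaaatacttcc

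Of the 17 Atp5 genes, 10 fell and 2 rose in Cisplatin against Normal (median -0.54), and 11 rose and 1 fell in RP against Cisplatin (median 0.56). Atp5s and Atp5sl are counted here, each called in both. The share called was 70.6% in each comparison, against 54.5% and 48.8% of all genes. Both genes of the catalytic head fell with cisplatin. Atp5a1 changed by -0.86 ± 0.16 (adjusted p = 0.000546) and Atp5b by -0.54 ± 0.15 (adjusted p = 0.00861), and in RP against Cisplatin they gave 0.76 ± 0.16 (adjusted p = 0.00157) and 0.72 ± 0.15 (adjusted p = 0.00162). In the central stalk, which turns inside the head, Atp5e fell (-0.37 ± 0.12, adjusted p = 0.017), while Atp5c1 (-0.29 ± 0.14) and Atp5d (-0.14 ± 0.15) were not called. The call of Atp5b was lost without Normal replicate 3 (up to 0.0508), and that of Atp5e without Normal replicate 2 or 3 and without Cisplatin replicate 2 (up to 0.0567). Atp5c1 was higher in RP than in Cisplatin by 0.50 ± 0.14 (adjusted p = 0.00757).

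In the peripheral stalk, the stator that keeps the head from turning, 3 of 4 genes fell with cisplatin, namely Atp5o, Atp5j and Atp5f1. Atp5o, the subunit that gives oligomycin sensitivity, stood at 1143, 931 and 1312 CPM in Normal, at 523, 639.9 and 682 CPM in Cisplatin and at 994, 1296 and 1152 CPM in RP. Its Cisplatin values were the lowest of the 9, with log2 fold changes of -0.88 ± 0.17 (adjusted p = 0.000557) and 0.90 ± 0.17 (adjusted p = 0.000587). Atp5j changed by -0.84 ± 0.16 (adjusted p = 0.000589), Atp5f1 by -0.64 ± 0.15 (adjusted p = 0.00285) and Atp5h by -0.37 ± 0.15, which was not called (adjusted p = 0.0596). Of the small membrane subunits, Atp5k fell by 0.63 on the log2 scale (adjusted p = 0.00154), and Atp5j2 (-0.38 ± 0.18) and Atp5l (0.11 ± 0.16) were not called. Without Cisplatin replicate 3, Atp5h and Atp5j2 were called as fallen, as they were under library-size scaling and the 5 CPM filter (adjusted p down to 0.0191 and 0.0142 over the alternatives). Atp5h was also called by limma-voom and without Normal replicate 2.

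The c ring is built from 1 mature protein encoded by 3 genes that differ in their import peptides, and these genes did not move together. Atp5g3 (chromosome 2, 73908447 to 73911326, minus strand) stood at 2450.2, 1822 and 2437 CPM in Normal, at 1231, 1212 and 1061 CPM in Cisplatin and at 1755, 2409 and 1906 CPM in RP. Cisplatin was below both other groups, with a change of -0.94 ± 0.17 against Normal (adjusted p = 0.000358), and RP against Cisplatin gave 0.79 ± 0.17 (adjusted p = 0.00149). Atp5g1 (chromosome 11, 96068852 to 96075670, minus strand) stood at 394, 369 and 474 CPM in Normal, at 276, 241 and 284 CPM in Cisplatin and at 412, 463 and 414 CPM in RP. It followed the same order at a lower level, with -0.63 ± 0.13 (adjusted p = 0.00145) and 0.69 ± 0.13 (adjusted p = 0.000959).

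Atp5g2 (chromosome 15, 102662864 to 102672352, minus strand) stood at 152, 144 and 176 CPM in Normal, at 218, 209.9 and 289.8 CPM in Cisplatin and at 192, 174 and 212 CPM in RP. Cisplatin was above Normal without overlap, with a change of 0.61 ± 0.15 (adjusted p = 0.00382), and RP lay between them with 1 library inside the Normal range and 1 inside the Cisplatin range. RP against Cisplatin gave -0.31 ± 0.15, which was not called (adjusted p = 0.0975). Of the counts for subunit c, Atp5g2 took 5.06 to 6.16% (Normal), 12.6 to 17.7% (Cisplatin) and 5.71 to 8.38% (RP). Atp5g3 took 78.0 to 81.8%, 64.9 to 72.9% and 74.4 to 79.1%, and Atp5g1 13.1 to 15.8%, 14.5 to 17.4% and 15.2 to 17.5%. The promoter of Atp5g3, the main c subunit gene here, at chr2:73911327-73911576 (minus strand), holds 1 match, in capitals, to the oestrogen-related receptor letters AAGGTCA on the opposite strand.
Atp5g3 promoter: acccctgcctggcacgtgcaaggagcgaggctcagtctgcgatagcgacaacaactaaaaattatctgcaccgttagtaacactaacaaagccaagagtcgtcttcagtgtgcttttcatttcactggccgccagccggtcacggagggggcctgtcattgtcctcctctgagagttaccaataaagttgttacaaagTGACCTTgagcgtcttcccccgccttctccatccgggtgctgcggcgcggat

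Atp5s and Atp5sl carry the Atp5 prefix without being structural subunits of the enzyme. Atp5s, known as a coupling factor B-like protein, stood at 9.90, 8.44 and 9.39 CPM in Normal, at 24.0, 18.7 and 25.0 CPM in Cisplatin and at 12.4, 13.1 and 8.27 CPM in RP. Cisplatin values were the highest, with log2 fold changes of 1.28 ± 0.21 (adjusted p = 0.000188) and -0.999 ± 0.21 (adjusted p = 0.00132). Atp5sl, renamed Dmac2 as an assembly factor of the complex I membrane arm, stood at 32.6, 26.6 and 38.1 CPM in Normal, at 19.9, 16.6 and 17.1 CPM in Cisplatin and at 33.4, 33.3 and 31.1 CPM in RP. Its Cisplatin values were the lowest, with -0.86 ± 0.16 (adjusted p = 0.000528) and 0.87 ± 0.16 (adjusted p = 0.000622).

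Promoter sequences were at hand for 35 of the 45 genes. Not among them were Uqcrc2, Cyc1, Uqcrb, Uqcrq, Cox4i1, Cox4i2, Cox6a2, Cox6c, Cox8c and Atp5a1. The 250 bases before each start were searched on both strands, each matching position counted once, for NRF1 (GCGCNTGCG), ETS factors such as GABP (CCGGAAG), oestrogen-related receptors (AAGGTCA), the myogenic E-box (CAGCTG) and MEF2 by name. NRF1 letters were present in 7 of 35 (20.0%), against 5.40% of 27025 promoters in the table and 11.1% of 9751 promoters of genes tested. ETS letters were also in 7 of 35 (20.0%), against 7.05% and 13.3%. Oestrogen-related receptor letters were in 2 (5.71%, against 4.05% and 2.80%), the E-box in 2 (5.71%, against 12.8% and 11.8%) and MEF2 in 0 (against 3.01% and 1.91%). Among genes with a promoter, NRF1 letters were in 4 of 18 that fell, 2 of 12 not called and 1 of 4 that rose with cisplatin, the last being Atp5g2. For 27 of the 35 genes, the bases just after the start were found in a GENCODE transcript of that gene. Cycs, Atp5g2, Atp5h and Atp5sl, which hold NRF1 letters, were not among these. A match describes letters in a window and is not a measured site.

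GENCODE M21, whose GRCm38 assembly is the one called mm10, placed 43 of the 45 genes, on 19 chromosomes, and its positions are the ones given. The exons of 8 genes overlap a gene on the opposite strand, and the strand setting of the counting is not given in the sources used here, so reads of the partners cannot be told apart. The most abundant partner was Pdzd9, at 130.0 CPM over the libraries, beside Uqcrc2. The partners of Uqcrb, Cox4i1, Cox6a2, Cox6c, Atp5f1 and Atp5j stood at 1.66 to 24.8 CPM. Cycs, Cox6c and several Atp5 genes have processed copies elsewhere in the genome, so how reads were split between them is uncertain.

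Other genes of the same enzymes were listed as background. A list of assembly factors also held the complex IV subunit Ndufa4, the ATP synthase subunit Usmg5 and the ATP synthase inhibitor Atpif1. Of its 37 genes tested, 13 fell and 6 rose with cisplatin (median -0.24), led by Coa4 (2.01 ± 0.22, adjusted p = 5.48e-06) and Coa5 (-1.22 ± 0.14, adjusted p = 8.41e-06), and 14 rose and 6 fell in RP against Cisplatin (median 0.14). The shares called, 51.4% and 54.1%, were near those of all genes, 54.5% and 48.8%. Of 35 complex I subunits 21 fell and 3 rose (median -0.48), with Ndufb8 at -0.98 ± 0.14 (adjusted p = 4.99e-05), and 24 rose and 1 fell in RP against Cisplatin (median 0.54), or 68.6% and 71.4% called. Of the 4 complex II subunits 3 fell, among them Sdhb (-0.78 ± 0.16, adjusted p = 0.00126), and 3 rose in RP against Cisplatin. Of 12 regulators of respiratory genes 5 fell and 6 rose with cisplatin, with Mef2c, a myogenic factor, at -2.75 ± 0.15 (adjusted p = 5.36e-08) and Esrra, an oestrogen-related receptor, at 1.12 ± 0.13 (adjusted p = 1.12e-05). Esrrg, another oestrogen-related receptor on the list, fell (-2.65 ± 0.38, adjusted p = 6.43e-05). Nrf1 (0.98 ± 0.18, adjusted p = 0.000458) and Gabpa (0.98 ± 0.21, adjusted p = 0.00132) were among those that rose. Ppargc1a (-1.55 ± 0.23, adjusted p = 8.81e-05) and Ppargc1b (-0.89 ± 0.22, adjusted p = 0.00318) were among those that fell. In RP against Cisplatin 5 of the 12 regulators rose and 6 fell. The share of regulators called was 91.7% in each comparison, against 54.5% and 48.8% of all genes. The part of these regulators in the changes of the subunit genes was not tested.

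Markers of fibre type and of several other cell types differed between the groups, and the lists did not all follow the same course. Summed over 6 genes, fast fibre markers were at 88700 to 105000 CPM (Normal), 71000 to 86800 (Cisplatin) and 99900 to 117000 (RP), and 3 of the 6 fell with cisplatin and 3 rose in RP against Cisplatin. Slow, oxidative fibre markers (5 genes, all of which fell with cisplatin) were at 795, 141 and 1290 CPM in Normal, 295, 53.6 and 60.4 in Cisplatin and 130, 191 and 243 in RP. In RP against Cisplatin 0 of the slow markers rose and 0 fell. Of all genes tested, 28.2% fell with cisplatin and 24.6% rose in RP against Cisplatin. By CPM, Normal replicate 3 was highest both for the slow marker sum and for 39 of the 43 genes. In Cisplatin the slow sum was highest in replicate 1, and replicate 3 was highest for 29 genes by CPM. By share of a library's counts, Cisplatin replicate 1 was highest for 23 genes and replicate 3 for 14. In RP the slow sum was highest in replicate 3, and replicate 2 was highest for 33 genes by CPM and for 38 by share.

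White adipocyte markers (4 genes) were at 190 to 1350 CPM (Normal), 43.1 to 209 (Cisplatin) and 769 to 1030 (RP). Smooth muscle and pericyte markers (5 genes) were at 399 to 467, 134 to 206 and 345 to 437 CPM. Fibroblast markers (4 genes) were at 2350 to 2960, 306 to 717 and 1740 to 2380 CPM, and macrophage markers (4 genes) at 95.7 to 113, 31.9 to 40.7 and 33.0 to 57.7 CPM. Of the macrophage markers 3 fell and 1 rose with cisplatin, the lysosomal Cd68 standing at 3.12 to 4.93 CPM (Normal), 17.0 to 25.3 (Cisplatin) and 2.93 to 8.54 (RP). All markers of the white adipocyte, smooth muscle and fibroblast lists fell with cisplatin and rose in RP against Cisplatin, and no marker of these lists was at 0 in a whole group. Tendon markers (4 genes) were at 67.7 to 136, 1.41 to 3.81 and 21.5 to 30.8 CPM, with Kera at 0 in Cisplatin, and erythroid markers (4 genes) at 3870 to 8190, 32.7 to 55.8 and 61.7 to 386 CPM, with Slc4a1 at 0 in Cisplatin. Endothelial markers (4 genes) were at 173 to 216, 138 to 180 and 152 to 211 CPM, and heart markers (4 genes) at 6.36 to 35.0, 8.94 to 16.3 and 7.85 to 12.1 CPM. Of the endothelial markers 2 fell with cisplatin and 2 rose in RP against Cisplatin, and 1 of 2 heart markers tested fell. Markers of brown adipocytes, a cell type dense in mitochondria, summed to at most 25.7 CPM in any library, 1 of them rose with cisplatin, and the defining Ucp1 was at 0 in every Cisplatin and every RP library. The part of these cells in the changes above was not tested.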

How the data were processed

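The 9 libraries (3 Normal, 3 Cisplatin, 3 RP) were made from 500 ng of total RNA with a Lexogen QuantSeq 3′ kit, per the labels' protocols. Each sample's deposited file holds the authors' raw counts of reads for 23282 rows of gene symbols. Bowtie2, edgeR and the mm10 build are named per the submitters' processing notes. Their versions, the annotation, the program that counted reads and whether it used strand are all not given in the sources used here.

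From the deposited counts, 79 rows sharing 35 symbols were summed, none of them a subunit gene. Replicates of a group differed by more than counting error (chi-square per degree of freedom of 11.3 to 28.9), so none was treated as a copy. Tests used edgeR 4.0.16 in R 4.3.3 on all genes, where filterByExpr kept 12859 genes, scaling was by TMM, and glmQLFit over all 9 libraries was followed by glmQLFTest for 3 comparisons. Calls needed a Benjamini-Hochberg adjusted p under 0.05 over all genes. Isoform ratios were log2 ratios of counts plus 0.5, tested by exact permutation over 1680 assignments of libraries to groups. The edgeR procedure was also run on simulated counts, with changes larger than those of most subunit genes here. Its outcome is not used in the results above. The ± values are SEs from the edgeR fit and include the spread between libraries. The floor of 3 counts covers counting error only.

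The members and lists were chosen with earlier results of these data known. Values per library are given for the isoform pairs, Cox4i1, Cox4i2, the subunit c genes, Cyc1, Cycs, the 3 genes of lowest p per complex with cisplatin and 2 in RP against Cisplatin, and genes called against the majority. Alternatives were RLE and library-size scaling, no filter, a filter at 5 CPM in 3 libraries, limma-voom (limma 3.58.1), DESeq2 1.42.0, the 2 compared groups alone, a replicate block, leaving out Rn45s (precursor ribosomal RNA, 7.38 to 12.8% of counts) and leaving out each library. For ratios, pseudocounts of 0 and 5 were tried. Python 3.11.15 and matplotlib 3.10.9 drew the figures.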

Additional observations from a re-analysis of the deposited data

How the results depend on the processing

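In Cisplatin against Normal, 15 of the 22 genes that fell and 3 of the 4 that rose kept their call under all 18 alternatives, Cox7a2l being the exception among the latter. In RP against Cisplatin, 18 of 22 that rose and 2 of 3 that fell kept theirs, and no called gene changed direction. Of the genes not called, 10 of 17 and 10 of 18 stayed uncalled under every alternative. Leaving out 1 library at a time gave 15 to 26 fallen and 3 to 4 risen genes in the first comparison, and 18 to 26 risen and 2 to 3 fallen in the second. Scaling by library size, which moved the median of all genes from -0.08 to -0.15 and from 0.07 to 0.21, gave 29 fallen and 29 risen genes. In RP against Normal 0 genes were called under every alternative. For the isoform ratios, leaving out 1 library gave adjusted exact p-values of 0.0321 to 0.386 for Cox6a2 to Cox6a1, 0.0107 to 0.0536 for Cox7a1 to Cox7a2 and 0.0107 to 0.0321 for Cox8b to Cox8a. The cause was not tested.

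The replicate numbers gave no clear pairing of the samples. Deviations of same-numbered libraries correlated at -0.124 to 0.158, and those of unlike numbers at -0.19 to 0.115. Not every library correlated best with its own number. The labels do not say whether the numbers mark shared litters or days. With the replicate block, 25 genes fell and 3 rose in Cisplatin against Normal, 24 rose and 4 fell in RP against Cisplatin, and 0 were called in RP against Normal. The block called Uqcrh, Cox6c and Atp5j2 as fallen in the first comparison, and in the second Atp5g2 as fallen (adjusted p = 0.0441) and Cox7c and Cox7a2 as risen, and it lost the Cox7a2l rise of the first. With the replicate block the adjusted exact p was 0.0556 for Cox6a2 to Cox6a1 and 0.0417 for each of Cox7a1 to Cox7a2 and Cox8b to Cox8a. Before adjustment the latter pairs each gave an exact p of 0.0278, the smallest possible within blocks. Genes near 1 CPM, such as Cox4i2 and Cox6b2, had SEs of 0.42 to 0.51, and estimates of -0.89 and 0.61 with cisplatin were not called at this depth.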
